A study of Mus musculus with 4 samples.

Results

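The 10 genes described here encode enzymes and adaptors that switch mitogen-activated protein (MAP) kinase signals off: the dual-specificity phosphatases Dusp1, Dusp2, Dusp4, Dusp5, Dusp6, Dusp10 and Dusp16, the Sprouty genes Spry1 and Spry2, and the related Spred1. Their probe sets were taken by gene symbol from the annotation of the array, by a rule that reads no signal. They were found on 20 of the 34945 probe sets that the annotation assigned to 1 gene. These genes were, however, chosen with earlier results of these data known. They are 10 of the 18193 genes measured. A single probe set represented 6 of them, and Dusp10, Dusp16, Spry2 and Spred1 had several.

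MAP kinases (ERK, JNK and p38) are activated by phosphorylation of a threonine and a tyrosine, and dual-specificity phosphatases remove both phosphates. Many of these phosphatases, and the Sprouty and Spred proteins that act further up at Ras and Raf, are themselves transcribed when MAP kinases are active, which makes them feedback inhibitors. In dendritic cells and macrophages, MAP kinase signals follow Toll-like receptors and growth factors such as GM-CSF, and Dusp1 is known as a brake on p38, JNK and inflammatory cytokine production.

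Bone marrow-derived dendritic cells (BMDC) of male C57BL/6 mice aged 6 to 8 weeks were grown for 7 days with GM-CSF at 500 U/ml, a culture that yields a mixture of myeloid cells rather than dendritic cells alone. Control BMDC had no contact with tumour cells. The other 3 samples were BMDC cocultured at a ratio of 1 tumour cell to 5 BMDC with live cells of 1D8, a line of mouse ovarian surface epithelium (the live coculture), BMDC cocultured with 1D8 cells irradiated at 50 Gy (the irradiated coculture), and BMDC in medium of which 25% by volume was 1D8 supernatant (conditioned medium). All samples, the control included, were sorted with an antibody to CD80 before RNA extraction, and each condition was 1 biological sample on 1 Affymetrix array. How long the BMDC stayed with tumour cells or supernatant, and whether marrow was pooled from several mice, is not given in the labels.

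With 1 array per condition there is no replicate error, no test was possible and none is given. Higher and lower describe these 4 arrays. A signal is the MAS5 value of a probe set, a linear brightness in arbitrary units. Each gene was read at its brightest probe set, signals below a floor of 44.3 (the median of all signals) were raised to it, and a difference of at least 2-fold was counted. The nearest measure of error is the difference between probe sets of 1 gene, judged from the 2 brightest probe sets of 4235 to 4588 genes. The SD of a single log2 ratio was 0.44 for the live coculture against the control and 0.41 for the irradiated one. It was 0.40 for conditioned medium and 0.24 between the cocultures. Both probe sets were read on the same arrays, so this SD leaves out variation between cultures, sorts and arrays. The 3 comparisons with the control share 1 control array, so an error in that array enters all of them.

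The labelled cell type was checked against its markers. All 12 markers of dendritic cells and antigen presentation exceeded the floor on each of the 4 arrays, but several differed from the control: 2 were higher and 3 lower in the live coculture, 3 and 2 in the irradiated coculture, and 2 and 1 in conditioned medium. Flt3 was only just above the floor of 44.3 in the control (45.5) and the irradiated coculture (46.7). Zbtb46 had signals of 56.1 to 63.1, and its other probe sets stayed under the floor. Ccr7, a chemokine receptor of mature dendritic cells, was 4.53-fold (live), 5.08-fold (irradiated) and 3.39-fold (conditioned medium) lower, and the MHC class II gene H2-Eb1 was 3.15-fold (live) and 2.57-fold (irradiated) lower. H2-Ab1, also of MHC class II, was 2.03-fold lower in the live and 1.95-fold lower in the irradiated coculture. Its other probe sets had log2 ratios of -1.71 and -1.57 (live) and -1.35 and -1.30 (irradiated). The costimulatory gene Cd86 was 2.28-fold higher in the irradiated coculture. The other Cd86 probe set did not repeat this, with log2 ratios of 0.01 (live), -0.20 (irradiated) and -0.39 (conditioned medium). Cd80, whose protein was used for the sort, was 4.42-fold, 3.81-fold and 2.35-fold higher, and the integrin gene Itgam 2.74-fold, 3.54-fold and 2.64-fold higher, in the order live, irradiated and conditioned medium. Itgax (CD11c), Csf2ra and Ptprc (CD45) were under 2-fold from the control in each treated sample. The summed signal of 12 epithelial and mesothelial markers was 474.5 (control) and 794.9 (conditioned medium), against 2846 with live and 3525 with irradiated 1D8 cells. Of these 12 markers, 0 were higher in conditioned medium, 6 in the live and 7 in the irradiated coculture. Krt19, an epithelial keratin, had signals of 8.6 and 22.2 without and 569.7 and 767.4 with tumour cells. Of 8 matrix and mesenchymal markers 0 were higher in conditioned medium, 2 in the live and 3 in the irradiated coculture. Lower signals were found for 2, 2 and 3 of 6 neutrophil markers and for 1, 2 and 2 of 5 mast cell and basophil markers in that order, and none was higher. Of 5 macrophage markers 1 was higher in each coculture, and 0 differed in conditioned medium. All 5 exceeded the floor on each array, with control signals of 931.6 (Mertk) to 7521 (Csf1r). A coculture value is therefore that of a sorted sample that may hold 1D8 RNA, and the part of 1D8 RNA in the results was not tested. In such bulk samples fewer cells of a type and less RNA per cell cannot be told apart.

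The start regions of 3 phosphatase genes are shown first, because Dusp1, Dusp5 and Dusp6 were at least 2-fold higher in the cocultures while in conditioned medium Dusp6 was higher, Dusp5 lower and Dusp1 under 2-fold from the control, and because their promoters hold different motifs. The sequences are RefSeq promoters of assembly GRCm38.p6, 250 bases before to 50 bases after the annotated start, written 5′ to 3′ along the gene. Capitals mark the cAMP response element core TGACG on either strand (or the whole element) and the CArG box, the site of serum response factor.
Dusp1 (chr17:26508423-26508722, minus strand): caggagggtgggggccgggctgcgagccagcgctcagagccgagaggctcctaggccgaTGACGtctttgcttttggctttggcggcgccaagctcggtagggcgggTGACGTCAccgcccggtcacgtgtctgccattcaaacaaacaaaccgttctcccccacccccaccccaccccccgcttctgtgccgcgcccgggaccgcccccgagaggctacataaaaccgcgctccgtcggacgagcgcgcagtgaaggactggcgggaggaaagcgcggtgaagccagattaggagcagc
Dusp5 (chr19:53528895-53529194, plus strand): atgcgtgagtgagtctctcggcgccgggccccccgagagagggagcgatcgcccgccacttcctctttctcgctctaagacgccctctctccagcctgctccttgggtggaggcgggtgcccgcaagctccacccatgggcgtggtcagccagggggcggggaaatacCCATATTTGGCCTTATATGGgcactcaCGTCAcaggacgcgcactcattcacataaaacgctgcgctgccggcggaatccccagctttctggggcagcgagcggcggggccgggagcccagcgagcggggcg
Dusp6 (chr10:99262981-99263280, plus strand): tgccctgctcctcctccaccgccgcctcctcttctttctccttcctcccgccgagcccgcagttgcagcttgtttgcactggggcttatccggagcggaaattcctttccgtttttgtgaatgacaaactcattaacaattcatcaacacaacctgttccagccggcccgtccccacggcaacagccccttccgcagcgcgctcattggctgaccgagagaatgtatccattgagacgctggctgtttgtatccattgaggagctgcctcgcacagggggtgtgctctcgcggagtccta
The Dusp1 promoter held the whole cAMP response element TGACGTCA at -143 to -136 and a further TGACG core at -191 to -187. The Dusp5 promoter held 2 adjoining CArG boxes, CCATATTTGG at -82 to -73 and CCTTATATGG at -72 to -63, and a TGACG core at -55 to -51. None of these motifs was found in the 300 bases of Dusp6.

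Promoters were matched for 9 of the 10 members. TGACGTCA was present in 1 of these 9 and in 1.79% of all 32851 promoters of the same length, and the CArG box in 1 of 9 and 1.63% of all. The shorter TGACG core, which is part of TGACGTCA, was present in 4 of 9 (Dusp1, Dusp2, Dusp5 and Dusp16) and 20.8% of all. The hypoxia response core ACGTG was found in Dusp1, Dusp2, Dusp5 and Spred1, 4 of 9 against 19.6% of all, and in Dusp5 it overlaps the TGACG core. The AP-1 motif TGACTCA or TGAGTCA, present in 5.20% of all promoters, the ETS motif CCGGAAG (8.86%), the NF-kappaB consensus (8.46%) and TATAAA (13.6%) were in none of the 9. Both strands were searched for every motif. A match describes the letters in this window and does not show that a factor binds there.

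Most members were higher in both cocultures than in the control. In the live coculture 8 of the 10 were at least 2-fold higher and 0 lower, where the share of all 18193 genes was 3.36% higher and 2.23% lower. In the irradiated coculture 7 were higher, against 3.47% of all genes, and 1 was lower, against 2.25%. In conditioned medium 2 were higher (2.3% of all genes) and 1 was lower (1.41%). The median log2 ratio of the 10 members was 0.33 in conditioned medium, 1.36 with live and 1.25 with irradiated 1D8 cells, while the median over all genes was 0 in each. Scaling shifts these splits: after quantile normalization the members were 7 higher and 1 lower in the live coculture and 1 and 1 in conditioned medium, and after median centring 8 and 1 in the live coculture. Over all genes the live coculture had 612 higher and 406 lower as deposited, 478 and 482 after quantile normalization and 490 and 559 after centring. Conditioned medium had 419 and 256, 284 and 339, and 300 and 408 in the same 3 settings.

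**Figure D1:**
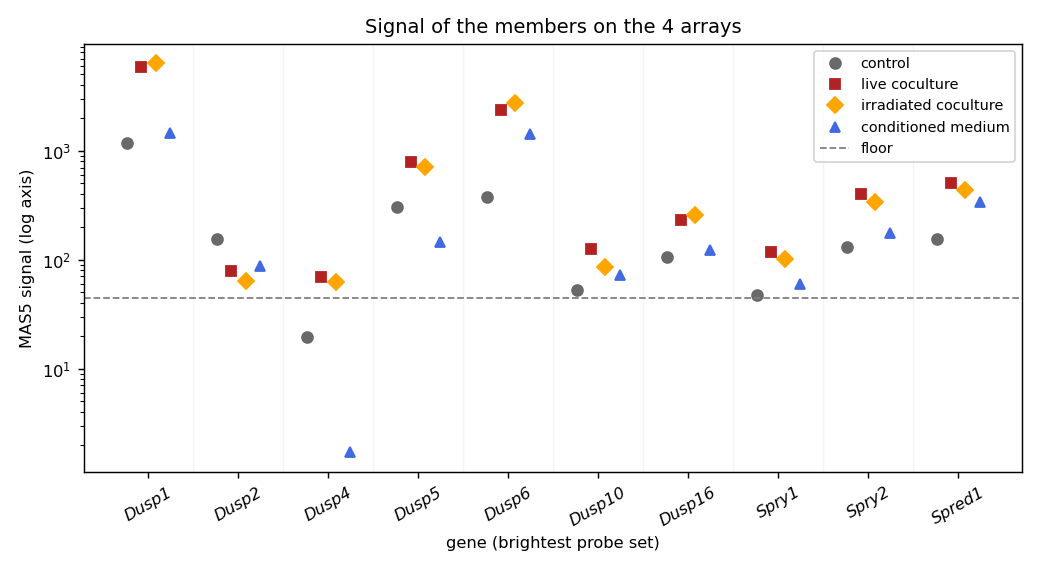
MAS5 signal (log axis) of the brightest probe set of each of the 10 members on the 4 arrays, 1 point per array, with the floor of 44.3 as a dashed line. For 9 genes both coculture points lie above the control and conditioned medium points. For Dusp2 they lie below both. Dusp4 exceeds the floor in the cocultures alone.

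The ERK phosphatase Dusp6, which acts in the cytoplasm, had the largest ratio of the 10 in each comparison with the control. The signal of Dusp6 was 374.4 (control) and 1419 (conditioned medium), against 2348 with live and 2718 with irradiated 1D8 cells. All 3 treated arrays were well above the control, and the cocultures were above conditioned medium by less than 2-fold. The ratios to the control were 6.27-fold (live), 7.26-fold (irradiated) and 3.79-fold (conditioned medium), which placed Dusp6 at rank 39, 31 and 24 from the top of 18193 genes. The log2 ratio of Dusp6 was 1.92 in conditioned medium and 2.65 in the live coculture. The summed epithelial and mesothelial marker signal was 474.5 in the control, 794.9 in conditioned medium and 2846 in the live coculture. The part of 1D8 RNA in the Dusp6 signal was not tested. Dusp6 was on a single probe set, so no second one was there to compare.

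Dusp5, a nuclear phosphatase selective for ERK, differed in direction between the treated arrays. Without tumour cells the signal was 303.2 in the control and 144.8 in conditioned medium, and with them it was 788.9 (live) and 702.5 (irradiated). The cocultures were 2.60-fold and 2.32-fold higher than the control, and conditioned medium was 2.09-fold lower. Between the live coculture and conditioned medium the difference was 5.45-fold, rank 28 from the top of all genes in that comparison, and for the irradiated coculture it was 4.85-fold. The lower signal in conditioned medium was close to the threshold, and with a floor at 155.6 it came to a log2 ratio of -0.96.

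Dusp1, the immediate early nuclear phosphatase of p38 and JNK, was higher in both cocultures. Signals were 1165 in the control and 1456 in conditioned medium, and 5886 and 6309 with live and irradiated 1D8 cells, so the cocultures stood well apart from the other arrays. The cocultures were 5.05-fold and 5.42-fold above the control and 4.04-fold and 4.33-fold above conditioned medium, while conditioned medium differed from the control by 1.25-fold, a log2 ratio of 0.32 that is below the SD of 0.40 between probe sets. Dusp1 ranked 68 and 63 from the top in the cocultures and 2994 in conditioned medium.

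Dusp2, a nuclear phosphatase of blood cells, had its highest signal in the control. The control had a signal of 155.4, conditioned medium 88.2, the live coculture 78.5 and the irradiated coculture 63.4. The irradiated coculture was 2.45-fold lower. The live coculture was 1.98-fold lower, just short of 2-fold, and conditioned medium 1.76-fold lower. After quantile normalization and after centring the live coculture also passed 2-fold, with log2 ratios of -1.16 and -1.11. All these signals lay under the higher floor of 155.6, with which no difference is left for Dusp2.

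Dusp4, another nuclear phosphatase, was dim. Signals were 19.5 in the control and 1.7 in conditioned medium, both under the floor, and 68.6 in the live and 61.9 in the irradiated coculture. Set against the floor the cocultures were higher by log2 ratios of at least 0.63 and 0.48, which do not reach 2-fold. With the lower floor of 12.9 the log2 ratios were 1.81 and 1.67. Dusp4 is the 1 member that did not exceed the floor on all 4 arrays.

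Dusp10 and Dusp16 are phosphatases that prefer JNK and p38. Dusp10 had signals of 52.1 (control) and 72.0 (conditioned medium), against 125.0 (live) and 86.3 (irradiated) in the cocultures. The live coculture was 2.40-fold higher than the control, and the irradiated one, at 1.66-fold, was under the threshold. Dusp16 had signals of 104.6 and 122.3 without and 230.0 (live) and 254.4 (irradiated) with tumour cells, so the cocultures were 2.20-fold and 2.43-fold above the control and conditioned medium was 1.17-fold above it. Its ratio in the live coculture was near the threshold and was 0.95 on the log2 scale after quantile normalization. The other probe set of each gene stayed under the floor on all 4 arrays and gave no ratio. Dusp10 in the control and conditioned medium was close to the floor, where MAS5 ratios are least certain.

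Spry1 and Spry2, which inhibit signalling from receptor tyrosine kinases to Ras and ERK, were higher in both cocultures. Spry2 had signals of 129.3 (control) and 173.7 (conditioned medium), against 397.7 with live and 341.2 with irradiated 1D8 cells. The cocultures were 3.08-fold and 2.64-fold higher than the control and conditioned medium 1.34-fold. A dimmer Spry2 probe set had a signal of 52.5 in the live coculture and 30.8 to 43.2, under the floor, on the other arrays, so it neither repeats nor contradicts the brighter one. Spry1 had signals of 46.9 in the control, 59.3 in conditioned medium, 118.7 with live and 100.5 with irradiated cells, which made it 2.53-fold and 2.14-fold higher in the cocultures and 1.26-fold higher in conditioned medium. The control signal of Spry1 lay just above the floor, and after quantile normalization its log2 ratio in the irradiated coculture was 0.89.

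Spred1, which brings the Ras inhibitor neurofibromin to the membrane, was higher on all 3 treated arrays. The brightest probe set had signals of 154.7 in the control, 335.1 in conditioned medium, 504.0 with live and 436.8 with irradiated 1D8 cells. Conditioned medium was 2.17-fold, the live coculture 3.26-fold and the irradiated coculture 2.82-fold above the control. Spred1 is the member with the most probe sets, 8, of which 7 exceeded the floor on some array. All 7 had log2 ratios above 0 on each treated array, from 0.11 to 1.12 in conditioned medium, 0.31 to 1.70 with live and 0.37 to 1.5 with irradiated 1D8 cells. At least 2-fold was reached by 4 of the 7 in each coculture and by 1 in conditioned medium. Averaged over all 8 probe sets the log2 ratios were 0.95 (live), 0.86 (irradiated) and 0.58 (conditioned medium), all under 2-fold, with the probe set under the floor counted as 0.

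**Figure D2:**
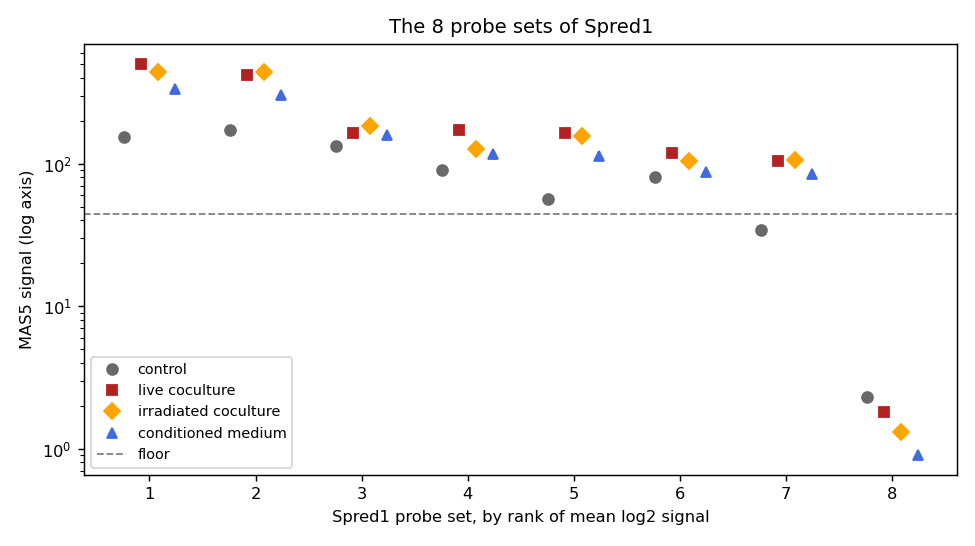
MAS5 signal (log axis) of the 8 probe sets of Spred1 on the 4 arrays, ordered by mean log2 signal, with the floor of 44.3 as a dashed line. On the first 7 the control has the lowest point. The eighth has signals of 0.9 to 2.3, far under the floor.

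Both coculture signals lay above both other signals for 9 of the 10 members, against 21.1% of all genes, and below both for 1, Dusp2, against 20.3%. For Dusp4 this order includes signals under the floor. Between the cocultures themselves, none of the 10 differed 2-fold, where 0.671% of all genes did. Of the 10 the largest difference was that of Dusp10, 1.45-fold lower in the irradiated than in the live coculture, and Dusp1, Dusp6 and Dusp16 were 1.07-fold, 1.16-fold and 1.11-fold higher in the irradiated one. The median log2 ratio was -0.19, with 7 of the 10 members below 0 and 3 above it.

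Set directly against conditioned medium, 4 members were at least 2-fold higher in the live coculture (Dusp1, Dusp5, Spry1 and Spry2) and 0 lower, where the share of all genes was 1.75% higher and 1.14% lower. In the irradiated coculture 3 were higher (Dusp1, Dusp5 and Dusp16) and 0 lower, against 1.95% and 1.24% of all genes. Spry1 was 2.00-fold higher in the live coculture, on the edge of the threshold, and Spry2 was 2.29-fold higher there and 1.96-fold higher in the irradiated coculture. Dusp6 (log2 ratios of 0.73 for the live and 0.94 for the irradiated coculture) and Spred1 (0.59 and 0.38) were under 2-fold in both of these comparisons.

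**Figure D3:**
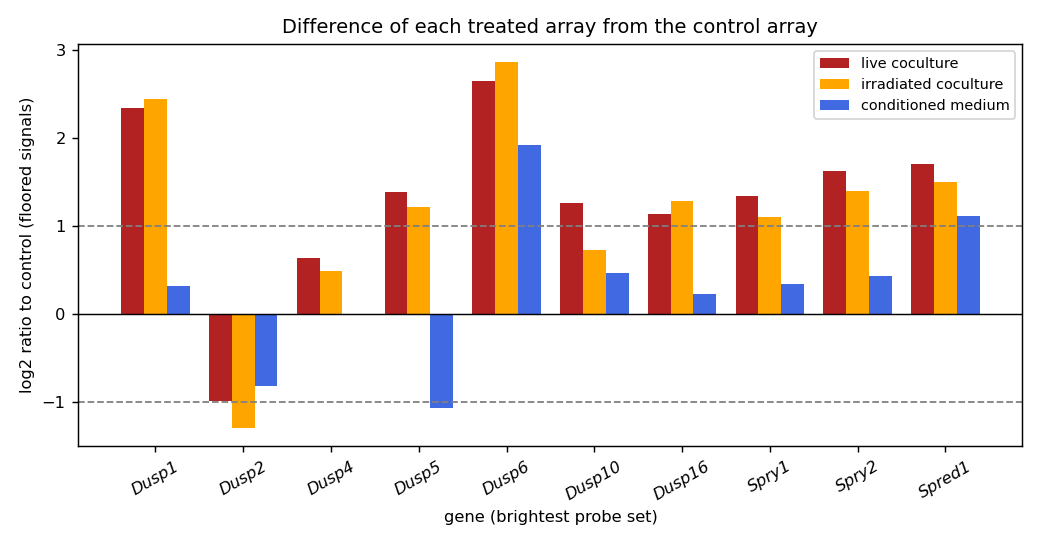
Log2 ratio of each treated array to the control array for the brightest probe set of each member, after the floor. Dashed lines mark 2-fold. The bars of Dusp6 and Spred1 pass the upper line on all 3 arrays, those of Dusp1 do so in both cocultures, and those of Dusp5 point up in the cocultures and down in conditioned medium.

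Other genes of the pathway were read from lists chosen by role, with earlier results of these data known. Of the 4 remaining Sprouty and Spred genes, Spred2 differed 2-fold: its signals were 151.7 in the control, 339.4 in conditioned medium, 930.8 with live and 768.5 with irradiated cells. Conditioned medium was 2.24-fold, the live coculture 6.14-fold and the irradiated coculture 5.07-fold above the control. The second brightest probe set of Spred2 had smaller log2 ratios of 0.61, 0.97 and 1.46 in that order, and the third, with its control signal raised to the floor, had 0.22, 1.84 and 1.66, so the 2-fold difference in conditioned medium rests on 1 probe set. Spry4 had signals of 31.7 to 53.2, Spred3 of 18.9 to 81.4 and Spry3 of at most 8.2, so that these dim genes gave no 2-fold difference above the floor. Of 17 other dual-specificity phosphatases, 12 exceeded the floor on some array. At the brightest probe set 0 were 2-fold from the control on any treated array, a count close to the 1.41% to 3.47% of all genes in 1 direction. The other 5 could give no ratio. Among the 12, Dusp3, which acts on ERK and JNK, had the lowest ratios, with signals of 1329 in the control and 706.6 to 721.5 on the treated arrays. Its second brightest probe set had log2 ratios of -0.59 (live), -0.84 (irradiated) and -1.14 (conditioned medium). Dusp18 had the highest ratios in the cocultures, with signals of 24.0 in the control against 86.6 and 85.8. Its control signal was under the floor, so the log2 ratios of 0.97 (live) and 0.95 (irradiated) are lower bounds.

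Of 15 measured MAP kinases and MAP kinase kinases, 11 exceeded the floor on some array. At the brightest probe set 0 were higher and 1 was lower. Map2k2, a kinase that activates ERK, was 2.01-fold lower in the irradiated coculture, with a log2 ratio of -0.53 at its other probe set. Dimmer probe sets of Mapk6, Mapk14 and Map2k4 were at least 2-fold higher on treated arrays. Log2 ratios of Mapk14 ran from -0.69 to 2.20 in conditioned medium and from -0.17 to 2.11 in the live coculture. Map2k4 had 0.14 and 1.29 in the live coculture at its 2 probe sets. Of 8 other phosphatases that act on MAP kinases 6 exceeded the floor, and 0 differed 2-fold at the brightest probe set. The second brightest probe sets of Ppm1b, Ppm1d and Ppp2ca passed 2-fold on some treated array. That of Ppm1b had log2 ratios of 0.90 (live), 1.04 (irradiated) and 1.20 (conditioned medium). The brightest had -0.51, -0.22 and -0.51 in the same order. Of 18 genes upstream of MAP kinases at the brightest probe set, 1 was higher in the live coculture and 2 each in the irradiated coculture and conditioned medium, and 0 were lower. Dimmer probe sets of other genes in this list passed 2-fold. That of Grb2 had a log2 ratio of -1.03 in the irradiated coculture. That of Shc1 had 1.00 (live), 1.17 (irradiated) and 1.26 (conditioned medium), and 1 of Braf had 1.42, 1.10 and 1.29 in the same order. Rasgrp1, an activator of Ras, had signals of 71.7 in the control, 105.3 in conditioned medium, 184.7 with live and 263.5 with irradiated cells, the cocultures being 2.58-fold and 3.68-fold above the control. Map3k8, the kinase that activates ERK after Toll-like receptors, was 2.01-fold higher in conditioned medium, 1.10-fold in the live and 1.65-fold in the irradiated coculture. Araf, a Raf kinase, was 2.17-fold higher in conditioned medium, 1.98-fold in the live and 2.05-fold in the irradiated coculture, but its probe sets disagreed, with log2 ratios from -0.39 to 1.16 in conditioned medium.

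Transcripts known to be induced through ERK differed in the cocultures. Of 18, the live coculture had 11 higher and 0 lower, the irradiated coculture 11 and 1, and conditioned medium 1 and 0, with median log2 ratios of 1.53, 1.26 and 0.02. Phlda1, a pleckstrin homology-like protein, had signals of 102.7 in the control, 153.5 in conditioned medium, 874.1 with live and 1130 with irradiated cells. Etv5, an ETS transcription factor, had signals of 77.8 in the control, 177.1 in conditioned medium, 769.0 with live and 737.5 with irradiated cells. It was the 1 gene of the list that was 2-fold higher in conditioned medium (2.28-fold), and 2 further probe sets of it had log2 ratios of 1.4 and 1.51 there. Fosb, a subunit of AP-1, had signals of 259.8 and 267.1 without and 1544 (live) and 1826 (irradiated) with tumour cells. Hbegf, a ligand of the epidermal growth factor receptor, had signals of 70.5 and 41.6 without and 385.8 (live) and 320.7 (irradiated) with tumour cells.

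Of 13 other negative feedback genes at the brightest probe set, 1 was higher in conditioned medium, 2 in the live and 4 in the irradiated coculture, and 1 was lower, with irradiated cells. In the live coculture, second brightest probe sets passed 2-fold for Tnfaip3 (log2 ratio of 2.46), Zfp36l1 (1.13) and Zfp36l2 (1.68). The brightest of these genes did not, and that of Zfp36l2 had -0.67. Dimmer probe sets of Nfkbia had 0.67 to 1.72 there. In conditioned medium the second brightest of Zfp36l1 and Zfp36l2 had 1.26 and 1.68. Rgs1, which dampens G protein signals, had signals of 989.5 in the control, 5432 and 5113 in the cocultures and 652.2 in conditioned medium. Errfi1, an inhibitor of the epidermal growth factor receptor, was 2.58-fold higher in the live and 3.86-fold higher in the irradiated coculture. Lrig1, which lowers the level of that receptor, was 2.27-fold higher in conditioned medium, and Gadd45b, a stress gene that acts on the kinases of p38 and JNK, was 2.34-fold lower in the irradiated coculture. The epithelial and mesothelial markers described above differed on the same coculture arrays as these lists, and their part in the list counts was not tested.

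**Figure D4:**
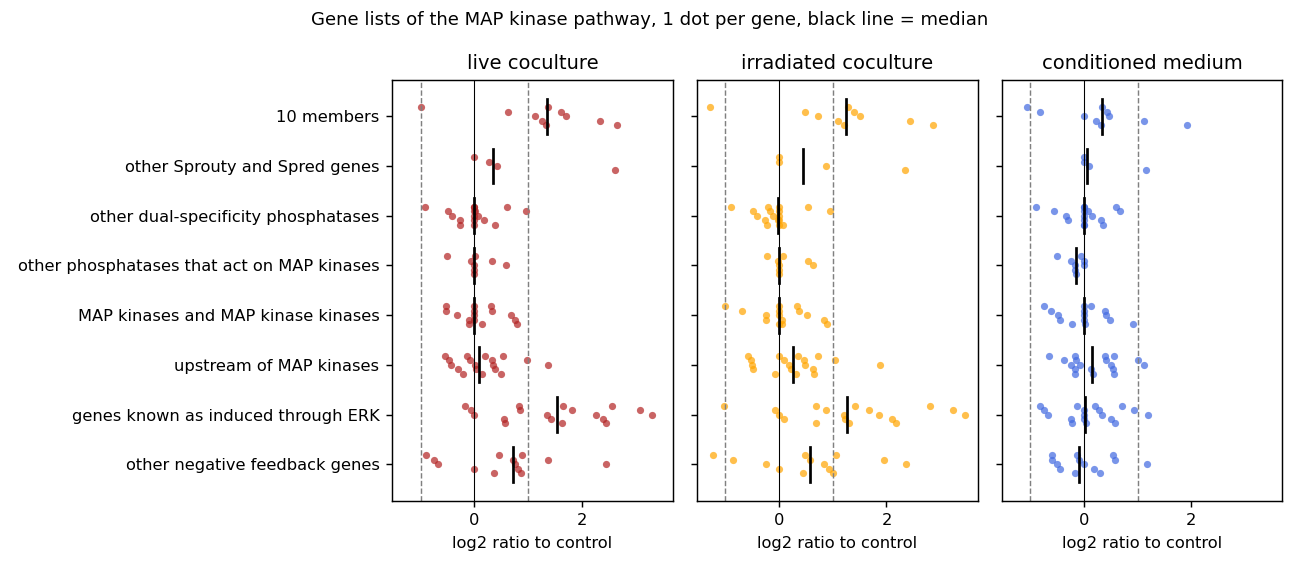
Log2 ratio to the control for the 10 members and 7 lists of pathway genes on each treated array, 1 dot per gene at its brightest probe set, the black line being the median and dashed lines 2-fold. The members and the 18 genes known as induced through ERK have medians above 1 in both cocultures, while the other dual-specificity phosphatases lie between the dashed lines, 5 of the 17 at 0 because they did not exceed the floor on any array.

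For each member that exceeded the floor on all 4 arrays, the genes with the most similar set of 3 ratios to the control were listed from 9530 candidates, using the root mean square difference in log2 ratio, a measure over 3 values that share the control array. Dusp1 was nearest to Fam162a (0.13), Nfil3 (0.14) and Pmepa1 (0.15). Dusp6 was nearest to Cysltr1 (0.16), with Nfkbiz (0.38) and Abcd2 (0.41) further off. Cysltr1, a leukotriene receptor gene, had signals of 75.3 in the control, 314.5 in conditioned medium, 487.4 with live and 464.9 with irradiated cells. For Dusp5 the nearest gene, the thrombin receptor gene F2r, was 0.29 away, with signals of 96.2 in the control, 61.1 in conditioned medium, 242.5 with live and 273.3 with irradiated cells, followed by Fen1 (0.33) and Tsc22d1 (0.35). Dusp16 was nearest to Smox (0.03), Thbd (0.04) and Cadm4 (0.06), and Dusp2 to Snx16 (0.04), Rnh1 (0.05) and Cyb5r1 (0.06). Spry1 was nearest to Zfp608 (0.07), Glipr2 (0.08) and Morrbid (0.08), and Spry2 to Cyp2s1 (0.08), Ccl3 (0.10) and Filip1l (0.12). Spred1 was nearest to Glrx (0.09), Mfng (0.10) and Pilra (0.10), and Dusp10 to Wnt7a (0.10), Katnbl1 (0.10) and Ccnd1 (0.10), the last a gene of the list induced through ERK.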

How the data were processed

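RNA of 4 sorted BMDC samples was hybridised to 4 Affymetrix arrays. The deposited values are MAS5 signal intensity per probe set on a linear scale, made by the authors with GCOS 1.4 and MAS5, per the submitters' processing notes; the scaling target is not given in the sources used here. Trimmed of 2% at each end, every array's signals averaged 150.0, so no further scaling was applied. Because MAS5 uses mismatch probes to correct the signal, dim probe sets give uncertain ratios. Signals under 44.3, the 50th percentile of all signals without the 64 control probe sets, were set to that floor, and log2 ratios were taken at the probe set of each gene with the highest mean log2 signal (Python 3.11.15, pandas 2.3.3). Probe sets were named from the array's annotation of 2016; 932 with several genes and 9160 with none were left out. The members and lists were chosen with earlier results of these data known. Named genes are all members and at most 4 genes per list (the largest ratios of those 2-fold from the control). The 3 nearest genes of each member above the floor on all 4 arrays were also named. Spry3, Spry4, Spred3, Dusp3, Dusp18, Mapk6, Mapk14, Map2k4, Ppm1b, Ppm1d, Ppp2ca and the cell markers were named beside them. So were Grb2, Shc1, Braf, Tnfaip3, Nfkbia, Zfp36l1 and Zfp36l2, for their dimmer probe sets. The alternatives were floors at the 25th and 75th percentiles, quantile normalization, median centring, the mean over probe sets, the second brightest probe set and thresholds of 1.5-fold and 3-fold. Steps were tested on simulated data, with known folds given to genes of a control signal above 4 times the floor. Its noise was taken from the spread between the cocultures. Most members were dimmer than that in the control, so the simulation does not cover them. Arrays give no counts, and their number limits the precision.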

Additional observations from a re-analysis of the deposited data

Results flagged for a closer look

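Dusp5 was at least 2-fold from the control in opposite directions on different treated arrays. The log2 ratio was -1.07 in conditioned medium, 1.38 with live and 1.21 with irradiated 1D8 cells. With 1 array per condition the difference between these effects was not tested.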

How the results depend on the processing

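No call of a member reversed under any alternative run. Of 26 member ratios at least 2-fold over the 6 comparisons, the floor at the 25th percentile kept 26. Median centring kept 25, quantile normalization 23 and the floor at the 75th percentile 17. The second brightest probe set kept 18 and the mean over probe sets 16. In these last 2 settings the 6 members with 1 probe set keep their values by construction. Only calls of Dusp10, Dusp16, Spry2 and Spred1 could change there. No call of these genes was kept with the mean. At the second brightest probe set only Spred1 in the live (1.28) and irradiated (1.35) cocultures against the control was kept. Dim or averaged probe sets at the floor shrink ratios by construction. The count of members 2-fold apart, 8 for each coculture against control, was 5 in both with the 75th percentile floor, 4 and 5 with the mean over probe sets, 5 in the live coculture at the second brightest probe set, and 4 and 2 at 3-fold. At 3-fold it was 1 for conditioned medium against control and 2 for live coculture against conditioned medium. At 1.5-fold it was 9 for live and 6 for irradiated coculture against conditioned medium. Counts over all genes also moved with the setting. For live coculture against control they were 612 higher and 406 lower in the main setting. They were 270 and 243 with the 75th percentile floor, and 754 and 362 at the second brightest probe set. No count over all genes is given at 1.5-fold or 3-fold, so the member counts there have no background. The median log2 ratio for irradiated coculture against control was 0.78 with the mean over probe sets and 0.79 at the second brightest. Against conditioned medium it was 0.55 for the live coculture at the second brightest probe set, and for the irradiated coculture 0.55 with the 75th percentile floor, 0.51 with the mean and 0.51 at the second brightest. Centring moved the median of genes above the floor in the live coculture from -0.04 to -0.17. No paired analysis was possible because each condition has 1 array.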
